A study of Mus musculus with 14 samples.

Results

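The estrogen-related receptor genes Esrra, Esrrb and Esrrg were followed through their accessible chromatin while mouse embryonic stem (ES) cells were driven towards primitive endoderm (PrE), from which the endoderm of the yolk sac develops. Members were regions made by merging the peaks of 14 libraries where they overlapped by at least 1 bp. A region belonged to a gene if it lay in the gene body or had the gene as its nearest protein-coding transcription start site (TSS) within 50 kb, in GENCODE vM21 on GRCm38. This gave 63 of 124598 regions, 36 at Esrrb, 25 at Esrrg and 2 at Esrra. The 3 genes were chosen by the calls at their regions over time, with Esrrb set against Esrrg. All counts of calls below are therefore descriptions without a test, and each is read beside the share of all regions in the same class.

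Accessibility was measured by ATAC-seq, in which a transposase inserts sequencing adapters into open DNA, from 50000 cells per library and with 2 libraries at each of 7 time points. The cells were KH2 ES cells of strain C57BL/6, and every group, 0 h included, carried the transgene TRE:GATA6-DSREd2, in which a doxycycline (Dox) responsive promoter drives GATA6. The 0 h cells were grown in serum-free 2i medium with LIF and received no Dox, while induced cells were placed in serum medium with LIF and Dox at 1 µg/mL. Cells of 2, 4 and 8 h had Dox until collection, and cells of 16, 24 and 48 h had it for 12 h and were then kept without it. Medium and induction cannot be told apart, since the time points after 0 h share both. Nothing in the labels says whether replicates were separate cultures.

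Estrogen-related receptors (ERRs) are nuclear receptors that resemble the estrogen receptors but have no known natural hormone, and they act with coactivators of the PGC-1 family. They bind the word TCAAGGTCA, or its core AAGGTCA, as single molecules or in pairs. Esrra and Esrrg are known for switching on mitochondrial energy metabolism genes in tissues with a high energy demand, whereas Esrrb is a factor of the naive ES cell state and is also needed in the placenta. GATA6, the induced factor, is a regulator of PrE that binds the word GATA between an A or T and an A or G.

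The 6 stretches printed here are examples from member regions, 1 gained at Esrra, 2 gained at Esrrg, and 1 gained and 2 lost at Esrrb. Gained means called by both libraries of a time point and by neither library of 0 h, lost means the opposite, and shared means called by all 4. Each stretch is printed 5′ to 3′ on the plus strand of GRCm38, cut to at most 300 bases around the centre of its region. GATA words (AGATAA or AGATAG or TGATAA or TGATAG) and ERR cores (AAGGTCA) on either strand are in capitals. The lost Esrrb regions were picked from their rank list after the words were seen, because they hold an ERR core near the centre.
Esrra gained, chr19:6922282-6922370: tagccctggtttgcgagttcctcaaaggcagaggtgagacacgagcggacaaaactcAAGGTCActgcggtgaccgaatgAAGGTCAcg
Esrrg gained, chr1:187823217-187823516: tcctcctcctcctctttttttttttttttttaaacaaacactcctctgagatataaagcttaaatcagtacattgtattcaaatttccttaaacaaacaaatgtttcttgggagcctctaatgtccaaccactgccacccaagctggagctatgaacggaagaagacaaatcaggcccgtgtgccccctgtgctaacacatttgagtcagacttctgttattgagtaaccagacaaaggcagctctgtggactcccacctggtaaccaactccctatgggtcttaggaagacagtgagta
Esrrg gained, chr1:188052915-188053214: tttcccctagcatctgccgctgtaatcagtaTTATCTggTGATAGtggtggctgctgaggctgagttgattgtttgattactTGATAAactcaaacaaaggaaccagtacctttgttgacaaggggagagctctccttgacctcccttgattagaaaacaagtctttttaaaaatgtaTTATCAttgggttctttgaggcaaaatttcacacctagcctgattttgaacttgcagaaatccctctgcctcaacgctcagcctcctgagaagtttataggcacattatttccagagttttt
Esrrb gained, chr12:86480689-86480988: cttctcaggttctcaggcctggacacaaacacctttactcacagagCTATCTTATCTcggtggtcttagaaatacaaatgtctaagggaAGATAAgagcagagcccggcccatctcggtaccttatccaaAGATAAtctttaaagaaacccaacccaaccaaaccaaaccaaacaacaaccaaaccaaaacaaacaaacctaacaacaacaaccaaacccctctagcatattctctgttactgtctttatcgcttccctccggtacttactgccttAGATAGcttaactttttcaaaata
Esrrb lost, chr12:86455111-86455410: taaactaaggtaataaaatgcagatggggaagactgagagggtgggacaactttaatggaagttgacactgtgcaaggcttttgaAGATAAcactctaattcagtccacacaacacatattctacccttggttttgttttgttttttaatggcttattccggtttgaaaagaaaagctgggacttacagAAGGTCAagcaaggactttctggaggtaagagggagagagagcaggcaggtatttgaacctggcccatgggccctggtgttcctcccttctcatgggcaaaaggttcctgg
Esrrb lost, chr12:86504335-86504634: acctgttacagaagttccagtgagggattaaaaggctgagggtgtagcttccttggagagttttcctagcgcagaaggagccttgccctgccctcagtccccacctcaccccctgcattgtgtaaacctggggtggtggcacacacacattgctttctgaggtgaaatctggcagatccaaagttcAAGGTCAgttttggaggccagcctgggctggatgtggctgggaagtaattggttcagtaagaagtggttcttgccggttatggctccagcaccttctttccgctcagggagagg

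The gained Esrrb stretch held 5 GATA words and no ERR core, and its counterpart at chr1:188052915-188053214 in Esrrg held 4 GATA words and no ERR core. Both lost Esrrb stretches held 1 ERR core each, and that at chr12:86504335-86504634 carried the extended form TCAAGGTCA. As these 2 were picked for their cores, their contrast with the gained stretches is no result. Of all 12 lost Esrrb regions, 2 held an ERR core in the central 200 bp. The lost stretch at chr12:86455111-86455410 also held 1 GATA word. The Esrra stretch held 2 ERR cores within 89 bases. The other Esrrg stretch had neither word in these 300 bases, although the whole region held 1 GATA word. Its capitals are therefore absent.

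The libraries held between 55588 and 65073 peaks and covered between 23.05 and 31.17 Mb. Sequencing depth is unknown from peak lists, so a region without a call is not shown to be closed. Among ES cell markers, Nanog had a peak over its TSS in both libraries at 0, 4 and 16 h, in 1 library at 2 and 24 h and in neither at 8 and 48 h. Pou5f1 and Sox2 had a peak within 1 kb of a TSS in both libraries of every time point, but Sox2 had none over a TSS in any library and Pou5f1 had a peak there in both libraries of 8 h and later and in none before. Of the PrE markers, Sox7 had a peak over its TSS in both libraries only at 48 h and in neither library from 0 h to 16 h. Within 1 kb of a TSS, however, Sox7 had a peak in both libraries of every time point but 2 h, where 1 library had it. Gata4 lacked a peak over its TSS in 1 library each of 0 h and 4 h, and Sox17 and Pdgfra had a peak there in every library. Cdx2 and Pax6, markers of other lineages, had a peak over a TSS in every library too. T had none over a TSS, but had a peak within 1 kb in both libraries of 0 h and in no other. A peak over a TSS is thus no measure of expression.

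Esrrb (ENSMUSG00000021255, chr12:86361117-86521628, plus strand) carried 36 regions, of which 33 lay in its gene body of 161 kb, or 20.6 per 100 kb. Measured against its protein-coding transcripts, 31 of the 36 lay in introns, 2 over exons and 3 upstream between genes. The number called was 21 and 21 at 0 h, 20 and 23 at 2 h, 23 and 23 at 4 h, 22 and 18 at 8 h, 23 and 27 at 16 h, 18 and 16 at 24 h, and 11 and 11 at 48 h in replicates 1 and 2. Both 48 h libraries thus lay below all 12 other libraries, and the highest count, 27, was in a library of 16 h. The length covered by peaks was 10.8 ± 0.78 kb at 0 h, 11.5 ± 0.938 kb at 16 h and 4.44 ± 0.341 kb at 48 h (SD, n = 2 each). Over all regions the libraries covered 27.97 and 29.86 Mb at 0 h and 23.05 and 25.59 Mb at 48 h.

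Esrrg (ENSMUSG00000026610, chr1:187608791-188214885, plus strand) carried 25 regions, of which 22 lay in its gene body of 606 kb, or 3.63 per 100 kb. Of the 25, 21 lay in introns, 1 over an exon and 3 upstream between genes. Called regions numbered 7 and 8 at 0 h, 7 and 6 at 2 h, 7 and 8 at 4 h, 10 and 7 at 8 h, 11 and 10 at 16 h, 8 and 8 at 24 h, and 12 and 16 at 48 h. The 48 h libraries held the highest counts, each above every library of another time point. Peaks covered 4.56 ± 1.18 kb at 0 h, 5.22 ± 0.455 kb at 16 h and 5.93 ± 0.787 kb at 48 h (SD, n = 2 each). Esrrb had more called regions than Esrrg in 12 of 14 libraries and fewer in the 2 libraries of 48 h, where the difference was -1 and -5 regions, against 14 and 13 at 0 h. This difference was part of what chose the genes.

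**Figure D1:**
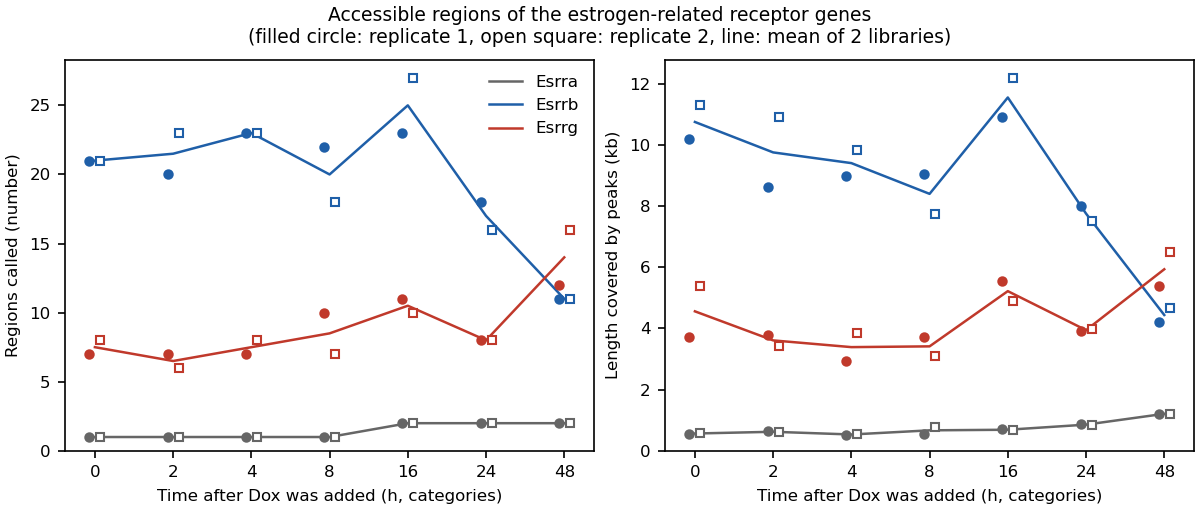
Regions called per library (left, number) and length covered by peaks (right, kb) for Esrra (grey), Esrrb (blue) and Esrrg (red) at the 7 time points, shown as categories. Filled circles are replicate 1, open squares replicate 2 and lines the mean of both. The Esrrb points drop from 23 and 27 regions at 16 h to 11 and 11 at 48 h, where those of Esrrg stand at 12 and 16.

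Compared with 0 h, Esrrb had 3 regions gained and 2 lost at 2 h, when 8.64% of all regions were gained and 6.25% lost. At 4 h it had 3 gained and 3 lost, beside 10.1% and 7.37% of all regions. At 8 h there were 5 gained and 5 lost, beside 11.1% and 9.99%. Gains then stood above losses at 16 h, with 8 gained and 4 lost beside 13.3% and 9.71%. The order was turned at 24 h, with 6 gained and 8 lost beside 11.6% and 13.2%. At 48 h, 4 of the 36 Esrrb regions (11.1%) were gained and 12 (33.3%) were lost, beside 14.5% and 16.6% of all regions. A further 5 Esrrb regions (13.9%) were shared by 0 h and 48 h, beside 18.7% of all regions.

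The same counts for Esrrg were 1 gained and 2 lost at 2 h, 2 and 3 at 4 h, 4 and 3 at 8 h, 8 and 5 at 16 h, and 6 and 5 at 24 h, beside the shares of all regions just given. At 48 h, 10 of the 25 Esrrg regions (40.0%) were gained, while 5 (20.0%) were lost and 2 (8.00%) shared. The comparisons of both genes share the 0 h libraries. The Esrrg counts depended on how regions were assigned, since by nearest TSS alone 4 were gained and 0 lost at 48 h, whereas by gene body alone 10 were gained and 5 lost.

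**Figure D2:**
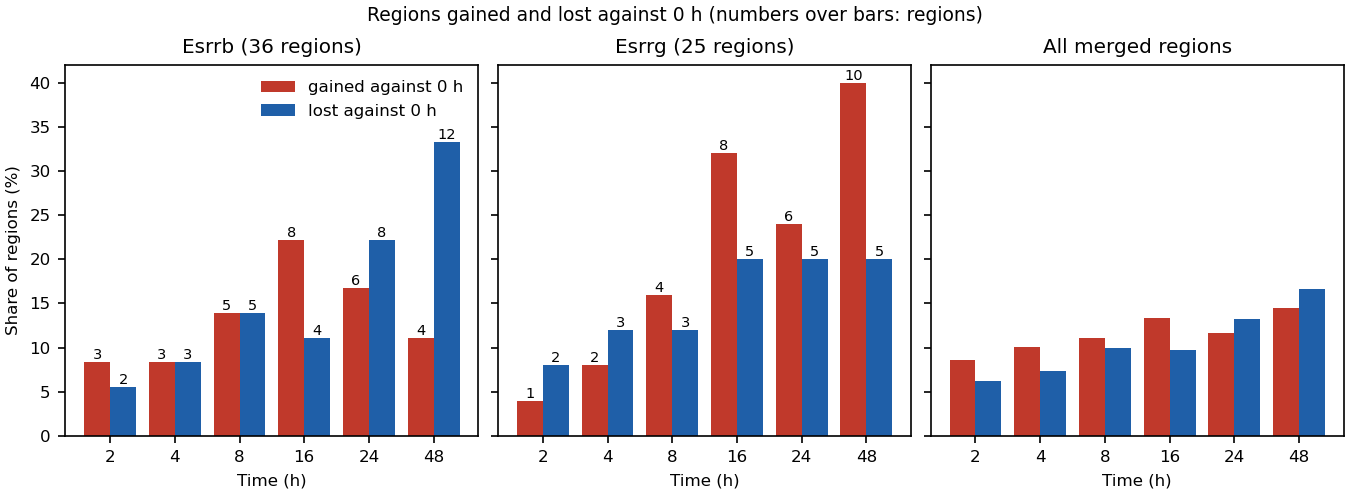
Share of regions (%) gained (red) and lost (blue) against 0 h at each later time point for Esrrb, Esrrg and all 124598 merged regions, with the number of regions over the bars of the 2 genes. At 48 h the lost bar of Esrrb reaches 33.3% and the gained bar of Esrrg 40.0%, beside 16.6% and 14.5% of all regions.

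Strength was read from the score that accompanies each peak, ranked within its library as a percentile in which 100 is the highest peak. Where a library had several peaks in a region, the highest percentile was taken. The score has no stated scale, so only these ranks were used. The Esrrb regions are described first, beginning with the start sites.

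Esrrb has 4 annotated positions at which protein-coding transcripts start, 86361117, 86421644, 86421883 and 86470117. No library had a region over the first of these. The region over 86421644 and 86421883 (chr12:86421272-86422174) was called in 12 libraries, with score percentiles of 41.8 and 39.4 at 0 h, 36.6 and 31.4 at 2 h, 68.4 and 65.8 at 4 h, 57 and 34.6 at 8 h, 55.4 and 54.2 at 16 h, 17.6 in replicate 1 only at 24 h, and 4.53 in replicate 2 only at 48 h. It was thus called in every library through 16 h, in 1 of 2 at 24 h and in 1 of 2 at 48 h. The region over the last start site (chr12:86469979-86470224) was called in 13 libraries, missing only from replicate 1 at 4 h, and stood at 49.2 and 42.1 at 0 h and 41.2 and 48.2 at 48 h.

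At Esrrb, 4 regions were called in all 14 libraries (11.1% of 36, beside 15.1% of all regions), all of them in introns. The intronic region at chr12:86395054-86396060, 34.4 kb after the first start site, had score percentiles of 91.8 and 89.6 at 0 h, 96.6 and 97.9 at 2 h, 98 and 98.3 at 4 h, 97.9 and 97.9 at 8 h, 98.6 and 97.9 at 16 h, 88 and 89.6 at 24 h, and 33.9 and 32.3 at 48 h. Its lowest rank through 24 h was 88.0, far above both ranks at 48 h.
The region at chr12:86470707-86471579, 1026 bp after the last start site, was at 94.3 and 96.2 at 0 h, 76.7 and 89.7 at 2 h, 86.7 and 84.2 at 4 h, 86.4 and 85.2 at 8 h, 90 and 88.1 at 16 h, 61 and 71.7 at 24 h, and 32.3 and 32.1 at 48 h. It too held its lowest ranks in the 48 h libraries. The other regions called throughout, at chr12:86402634-86403629 and chr12:86433158-86433784, stood at 92.6 and 93.9 and at 88.6 and 82.5 at 0 h, and at 70.2 and 75.1 and at 77.0 and 72.5 at 48 h. Calls alone therefore do not show that the chromatin of these shared regions was alike at both ends of the series.

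Of the 12 Esrrb regions lost at 48 h, 10 lay in introns and 9 lay between 94.1 and 143.4 kb after the first start site. They left at different times, the last time with calls in both libraries being 0 h for 3 of them, 4 h for 1, 16 h for 4 and 24 h for 4. The highest ranked was the intronic region at chr12:86501518-86502238, with percentiles of 98.5 and 97.6 at 0 h, 87.1 and 90.4 at 2 h, 64.9 and 61 at 4 h, 5.4 in replicate 1 only at 8 h, and 15 and 22.9 at 16 h. It held among the highest scores of its library at 0 h, was called in 1 of 2 libraries at 8 h, and returned in both at 16 h. The next, at chr12:86454951-86455570, whose centre is printed above, stood at 95 and 92.9 at 0 h, 96.1 and 97.4 at 2 h, 94.5 and 93.4 at 4 h, 77.4 and 77.2 at 8 h, 80.2 and 78.6 at 16 h, and 35.3 and 36.1 at 24 h, so it was called in every library but those of 48 h. The third, at chr12:86504037-86504932, also printed above, stood at 89.2 and 94.9 at 0 h, 75.1 and 73.8 at 2 h, 72.6 and 41.9 at 4 h, and 31.4 and 36.6 at 16 h. It overlaps an exon of Esrrb-205, a transcript of Esrrb annotated as non-coding, and was missing from both libraries of 8 h.

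The remaining lost regions named by rank had score percentiles of 83.3 and 71.6 (chr12:86462994-86463466), 73.4 and 78.1 (chr12:86466151-86466637) and 71.4 and 77.3 (chr12:86478657-86479383) at 0 h. In the 16 h libraries these were 3.65 and 3.15, 10.2 and 11.0, and 61.9 and 81.2. The last of these spanned its 0 h range again at 16 h, whereas the other 2 stood at or below 11.0. The 6 lost regions not named by rank lay between 2.02 and 75.0 in the 0 h libraries.

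In 4 of the 36 Esrrb regions both libraries of 0 h and both of 16 h had a call but not both of 8 h, a pattern found in 2.80% of all regions and in no Esrra or Esrrg region. Among regions called in both libraries of 0 h and of 16 h, these were 4 of 15 at Esrrb and 3487 of 30948 (11.3%) over all regions. They were the lost regions that start at 86385799, 86462994, 86501518 and 86504037. This pattern was looked for after the values were seen. The 8 h libraries had narrower peaks than those of 0 h, with median widths of 388 and 403 bp against 464 and 458 bp, and the part of peak width in the pattern was not tested.

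The 4 gained Esrrb regions all lay in introns, 3 of them between 112.7 and 121.0 kb after the first start site and so within the stretch that held most losses. The highest ranked, at chr12:86480591-86481086, was called in no 0 h library and in every library after, at 68.5 and 73.8 at 2 h, 84.7 and 91.1 at 4 h, 92.4 and 96 at 8 h, 93 and 80.4 at 16 h, 94.2 and 93.1 at 24 h, and 92.5 and 88.4 at 48 h. It was the only Esrrb region gained by 2 h that was still called in both libraries of 48 h. Its neighbour at chr12:86481907-86482423, 820 bp away, was called in both libraries from 8 h on and stood at 67.9 and 66.8 at 48 h. The lost region at chr12:86478657-86479383 lay on the other side, so gained and lost regions sat within a few kb of each other in this intron. The gained regions at chr12:86473523-86474050 and chr12:86403685-86404296 were first called in both libraries at 16 h, at 62.9 and 59.9 and at 86.3 and 88.6, and both were lower at 48 h, at 33.2 and 49.7 and at 31.0 and 40.2. The second of these started 55 bp after the end of a region called in all 14 libraries.

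Transient regions, without a call in any 0 h or 48 h library but with calls by both libraries of some intermediate time, were 7 of 36 at Esrrb (19.4%), 3 of 25 at Esrrg (12.0%) and 13.9% of all regions. The Esrrb region of this kind with calls in the most libraries, at chr12:86398715-86399147, stood at 84.3 and 85 at 2 h, 85 and 78 at 4 h, 66.6 and 55.6 at 8 h, and 30.1 and 64.1 at 16 h. It was already at its highest ranks at 2 h and 4 h. The next, at chr12:86387636-86388006, was called in both libraries of 16 h (64.4 and 61.6) and 24 h (48.6 and 46.3). That at chr12:86412281-86412815 was called in both libraries of 4 h and 8 h and in 1 of 16 h. All 7 lay in introns, between 3.5 and 74.8 kb after the first start site, where 1 of the 4 gained regions lay.

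**Figure D3:**
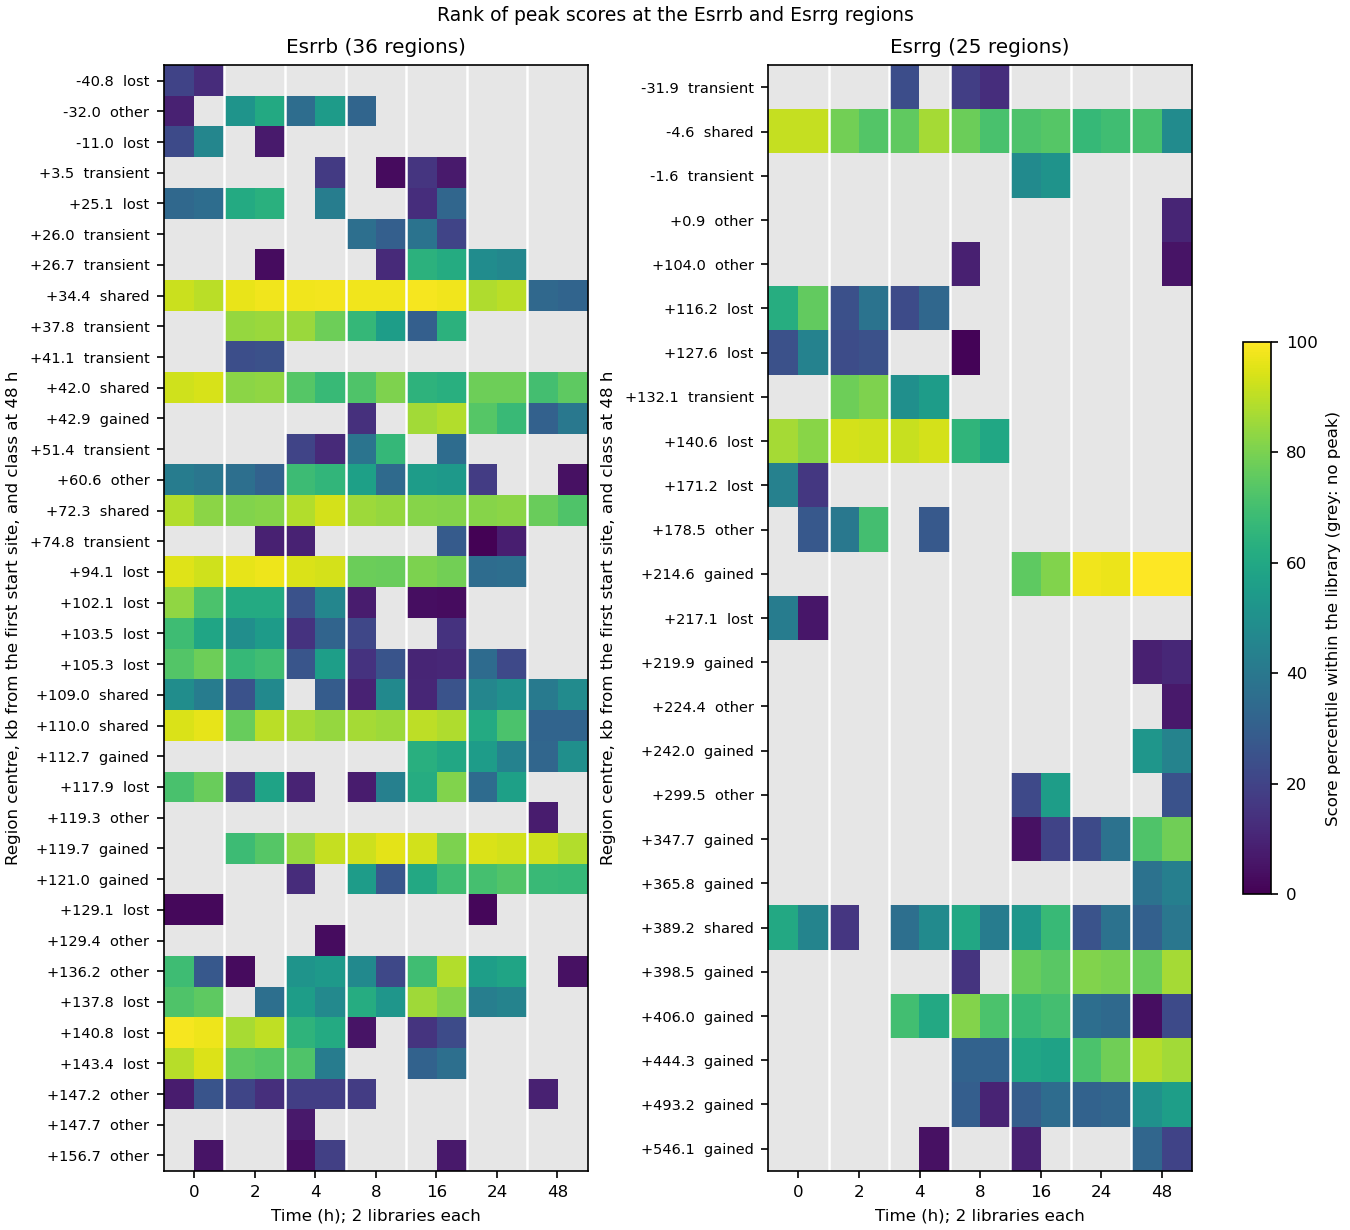
Score percentile within each library (colour, 0 to 100, grey where no peak was called) for the 36 Esrrb and 25 Esrrg regions. Rows are ordered by distance of the region centre from the first start site (kb) and name the class at 48 h against 0 h, and columns are the 2 libraries of each time point. The Esrrb rows from 94.1 to 143.4 kb mostly turn grey by 48 h, and the Esrrg row at 214.6 kb reaches 99.9 in both 48 h libraries.

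The protein-coding transcripts of Esrrg in the annotation used for assignment start in 2 places, at 187608791 and 187609029 and, 389 kb further on, at 187997827 and 187997868. No region lay over the upstream pair. RefSeq gives further starts between the pairs, with promoters that end at 187651757 and 187652240. The region over the downstream pair (chr1:187997602-187998309) was called in 13 libraries, with percentiles of 60.5 and 45 at 0 h, 15.8 in replicate 1 only at 2 h, 36.6 and 47.7 at 4 h, 60.1 and 42 at 8 h, 52.7 and 67.4 at 16 h, 25.7 and 37.8 at 24 h, and 30.5 and 39.8 at 48 h. The only Esrrg region called in all 14 libraries (4.00% of 25) lay between genes at chr1:187603921-187604476, 4593 bp before the first start site. It stood at 91.1 and 91.1 at 0 h and 70.8 and 48.4 at 48 h.

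All 10 Esrrg regions gained at 48 h lay in introns, 5 before and 5 after the downstream starts. They were first called in both libraries at 4 h (1 region), 8 h (2), 16 h (3) and 48 h (4). The highest ranked, at chr1:187822927-187823807, 214.6 kb after the first start site, stood at 75.1 and 80.9 at 16 h, 98 and 97.1 at 24 h, and 99.9 and 99.9 at 48 h. No library before 16 h called it, and both 48 h libraries ranked it near the top of their lists. The second, at chr1:188052622-188053507, was at 31.3 and 31.5 at 8 h, 59.1 and 57.7 at 16 h, 71.8 and 78.5 at 24 h, and 88.8 and 86.3 at 48 h. From 8 h on, the lower library of each time point ranked it above the higher library of the time point before.

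Next in rank was chr1:188006894-188007654, 9406 bp after a downstream start site and within the antisense gene 9330162B11Rik, which stood at 15.2 in replicate 1 only at 8 h, 76.7 and 74.4 at 16 h, 80.9 and 79.8 at 24 h, and 77.3 and 86.5 at 48 h. The region at chr1:187956278-187956690 was called in both libraries from 16 h on, at 4.58 and 20.2 at 16 h, 22.5 and 37.8 at 24 h and 72.6 and 78.5 at 48 h. The region at chr1:188101864-188102196 stood at 29.8 and 9.83 at 8 h and at 50.5 and 56.0 at 48 h, and that at chr1:187850600-187850932 was called at 48 h only, at 52.4 and 44.7. Most of these had their highest ranks in the 48 h libraries, but they were named by their rank at 48 h, which favours that outcome. The earliest gained Esrrg region, not among those named by rank, went the other way. It lay at chr1:188014431-188015068, was first called at 4 h and stood at 69.6 and 60.3 at 4 h, 81.6 and 71.6 at 8 h, 67.4 and 70 at 16 h, 36.1 and 34.3 at 24 h, and 3.77 and 22.6 at 48 h.

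The 5 lost Esrrg regions lay in introns between 116.2 and 217.1 kb after the first start site, before all gained regions but that at 214.6 kb. They were last called in both libraries at 0 h (2 regions), 2 h (1), 4 h (1) and 8 h (1), and none of them had a call at 16 h or later. The highest ranked, at chr1:187749115-187749673, stood at 86.5 and 82.3 at 0 h, 93.6 and 92.9 at 2 h, 91.5 and 93.5 at 4 h, and 65.6 and 59.7 at 8 h. It thus ranked higher at 2 h and 4 h than at 0 h and had no call from 16 h on. The second, at chr1:187724680-187725268, was at 62.3 and 76.0 at 0 h and 22.7 and 33.4 at 4 h and had no call after. The other 3, at chr1:187736061-187736702, chr1:187779574-187780358 and chr1:187825680-187826190, were at or below 44.3 in every library. Between the lost regions, chr1:187740587-187741155 was called only at 2 h (78.1 and 80.7) and 4 h (49.9 and 55.3). The other transient regions lay upstream of the gene, at chr1:187576715-187577031 with calls in both libraries of 8 h and at chr1:187606942-187607369 with calls at 16 h only.

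A region called in every library of 16, 24 and 48 h and in no other was found 2 times at Esrrg (8.00%), 1 time at Esrrb and 1 time at Esrra, beside 1.24% of all regions. These were the Esrrg regions that start at 187822927 and 187956278, the Esrrb region that starts at 86473523 and the gained Esrra region.

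**Figure D4:**
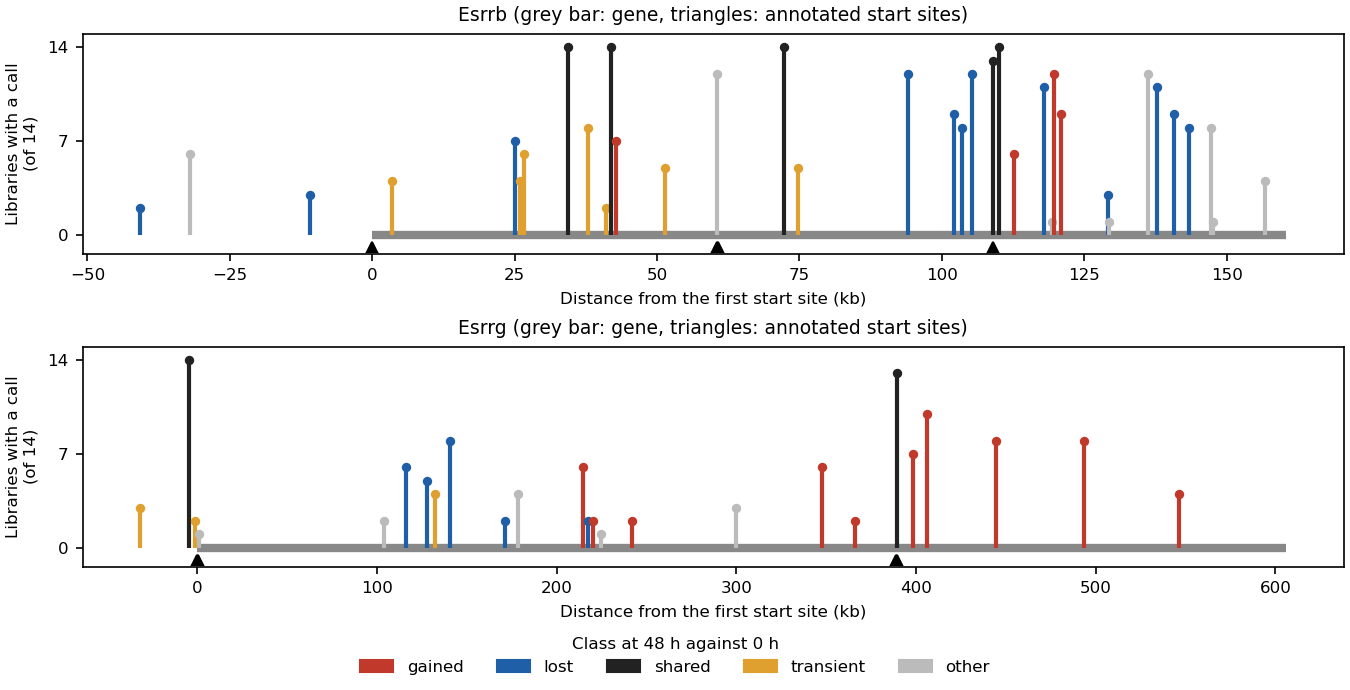
Position of each Esrrb (top) and Esrrg (bottom) region as distance from the first start site (kb) against the number of libraries with a call (of 14), coloured by class at 48 h against 0 h. The grey bar is the gene and triangles are annotated protein-coding start sites. The 5 lost Esrrg regions lie between 116.2 and 217.1 kb and the 10 gained between 214.6 and 546.1 kb, while gained and lost Esrrb regions are interspersed around the last Esrrb start site.

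The edge of the assignment rule left some regions out. At Esrrb the last member upstream lay 40747 bp from the nearest start site and was called in the 0 h libraries only, and the next region upstream, 55195 bp away at chr12:86305680-86306164, was called in all 14 libraries. Downstream, the last member lay 47749 bp from a start site and had 4 calls, and the next region, 68704 bp away at chr12:86538526-86539117, was called in both libraries of 24 h and of 48 h and in no other. At Esrrg the farthest member outside the gene lay 31918 bp away with 3 calls, and the next region, 156451 bp away, was called in both 0 h libraries only.

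Esrra (ENSMUSG00000024955, chr19:6910977-6921813, minus strand) is a gene of 10.8 kb with 2 regions. No region lay over its protein-coding start site at 6921051. The promoter region at chr19:6921146-6922279, over the start sites at 6921808 and 6921761, was called in all 14 libraries and had score percentiles of 85.1 and 85.3 at 0 h, 86.2 and 81.9 at 2 h, 82.7 and 77 at 4 h, 88.6 and 90.8 at 8 h, 88.3 and 87.9 at 16 h, 94.3 and 96.6 at 24 h, and 96 and 98.1 at 48 h. The 4 libraries of 24 h and 48 h lay above the 10 others. Peaks covered 558 and 574 bp of it at 0 h, 547 and 793 bp at 8 h, 737 and 738 bp at 24 h and 946 and 1039 bp at 48 h. The covered length was thus largest in both libraries of 48 h as well.

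The gained Esrra region, chr19:6922282-6922549, was called in both libraries of 16, 24 and 48 h and in none before, at 40 and 3.25 at 16 h, 7.43 and 15.8 at 24 h, and 34.6 and 39.5 at 48 h. It is 2 bp from the promoter region and reaches over the 3′ end of Catsperz (chr19:6922371-6925380, minus strand), a gene of the sperm ion channel complex. Where peaks up to 200 bp apart were merged it joined the promoter region, and 0 Esrra regions were then gained. Only the bases before Catsperz are printed above. Their ERR cores lie 531 and 554 bp upstream of the first Esrra start site, and the nearer belongs to the extended form.

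Beside the regions, the 250 bases before the main start sites of the genes with a peak over them are shown, since peaks lie over them. They are taken from RefSeq on GRCm38.p6, 5′ to 3′ on the strand of the gene, with GATA words and ERR cores on either strand in capitals.
Esrra promoter, chr19:6921809-6922058, minus strand: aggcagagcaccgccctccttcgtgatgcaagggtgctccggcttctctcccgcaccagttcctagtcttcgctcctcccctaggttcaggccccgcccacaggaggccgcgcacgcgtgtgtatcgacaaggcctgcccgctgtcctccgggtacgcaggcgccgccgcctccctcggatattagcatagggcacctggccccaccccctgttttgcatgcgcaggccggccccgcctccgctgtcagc
Esrrb promoter, chr12:86421394-86421643, plus strand: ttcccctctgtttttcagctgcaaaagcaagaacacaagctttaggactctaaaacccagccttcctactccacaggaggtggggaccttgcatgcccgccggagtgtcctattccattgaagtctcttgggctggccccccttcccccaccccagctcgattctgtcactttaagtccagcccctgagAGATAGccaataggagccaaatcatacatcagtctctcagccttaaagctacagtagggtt
Esrrg downstream promoter, chr1:187997577-187997826, plus strand: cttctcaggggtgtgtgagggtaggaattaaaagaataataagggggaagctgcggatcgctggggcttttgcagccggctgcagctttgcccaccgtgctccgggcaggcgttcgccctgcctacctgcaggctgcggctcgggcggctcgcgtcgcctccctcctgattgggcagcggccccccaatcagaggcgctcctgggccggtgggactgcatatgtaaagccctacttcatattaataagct

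The Esrra promoter had 68.4% G or C and 22 CG pairs in these bases, the Esrrg promoter 61.2% and 16, and the Esrrb promoter 52.0% and 3. The Esrrb promoter held 1 GATA word, AGATAG, 61 bases before the start, and the others held none. A GATA word was found in 26.5% and an ERR core in 4.08% of 32851 promoters of this length. None of the 3 promoters held an ERR core. The region over the Esrrb promoter, which had the fewest CG pairs of the 3, lacked a call in 1 library each of 24 h and 48 h. That over the Esrrg promoter lacked a call in replicate 2 of 2 h. The RefSeq Esrrg promoters that end at 187651757 and 187652240 had 14 and 22 CG pairs, and no region lay over them. No region lay either over the RefSeq Esrrb promoter that ends at 86361116, with 6 CG pairs. The same held for the RefSeq Esrrg promoter that ends at 187609005, with 9 CG pairs. A link between CG pairs and calls was not tested.

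GATA words stood in the central 200 bp of 7 of the 10 gained Esrrg regions and of 3 of the 4 gained Esrrb regions, beside 57.8% of all regions gained at 48 h and 35.5% of all regions. They stood there in 3 of the 12 lost Esrrb and 2 of the 5 lost Esrrg regions, beside 22.5% of all lost regions. In the whole region, a GATA word was found in 9 of the 10 and 4 of the 4 gained regions, beside 74.5% of all gained regions. The lost regions held it in 8 of 12 at Esrrb and 4 of 5 at Esrrg, beside 55.1% of all lost regions. A permuted GATA word (AAGTAA or AAGTAG or TAGTAA or TAGTAG) stood in the central 200 bp of 2 of the 10 and 0 of the 4 gained regions and of 3 of the 12 and 2 of the 5 lost regions, beside 21.2% of all regions. The gained Esrrg regions with most GATA words were those that start at 188006894 and 188052622, with 6 each, and the gained Esrrb region that starts at 86480591 also held 6.

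The ERR core AAGGTCA was found in 6 of the 12 lost Esrrb regions, beside 20.1% of all lost regions and 12.9% of all regions. In the central 200 bp it stood in 2 of the 12, beside 8.56% and 5.54%. The 5 Esrrb regions shared by 0 h and 48 h held it in 2 cases, 1 of them in the central 200 bp. The extended word TCAAGGTCA was found in 3 of the 12, those that start at 86385799, 86501518 and 86504037, beside 4.09% of all lost regions and 2.16% of all regions. The region at chr12:86501518-86502238 held it at 2 positions. No gained region of Esrrb or Esrrg held an ERR core, and of all 25 Esrrg regions 1 did. The lost Esrrb regions had a median width of 653.5 bp and the gained Esrrg regions one of 485.5 bp. No allowance was made for width.

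The SOX word CATTGT stood in the central 200 bp of 7 of the 10 gained Esrrg regions, beside 20.9% of all gained regions and 13.5% of all regions, and in none of the 4 gained Esrrb regions. It stood there in 2 of the 5 lost Esrrg regions, beside 14.4% of all lost regions. In the whole region it was found in 7 of the 10 gained Esrrg regions, beside 35.4% of all gained regions. The lost Esrrg regions held it in 4 of 5 cases, beside 32.9% of all lost regions. Of all 25 Esrrg regions 14 held it, beside 26.4% of all regions. The POU octamer ATGCAAAT stood in the central 200 bp of 1 of the 12 lost Esrrb regions, beside 4.48% of all lost regions. It also stood there in 1 of the 10 gained Esrrg regions, beside 1.16% of all gained regions. The AP-1 word TGANTCA stood there in 1 of these 10, beside 7.29% of all gained regions. Among the 12 lost Esrrb regions it stood there in 1, beside 8.33% of all lost regions and 11.6% of all regions. The HNF1 word GTTAATNAT was found in 1 lost Esrrb region and in no Esrrg region, beside 1.33% of all regions. Median GC content was 44.7% in the gained Esrrg regions and 51.3% in the lost Esrrb regions, against 48.9% in all gained and in all lost regions, and its part in these counts was not tested. A word in a region is a match of letters and does not show that a factor binds it.

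The share of regions called in each library was compared between genes to name those most like Esrrb and Esrrg, over 14 libraries and 4889 genes with at least 8 regions. For Esrrb these were Bcat1, an enzyme of branched-chain amino acid breakdown (Pearson r = 0.939), Ror2, a Wnt receptor (r = 0.933), and Rcl1, a factor of ribosomal RNA processing (r = 0.931). The share of Bcat1 regions called was 50.0% at 0 h and 17.4% at 48 h, with 1 gained and 8 lost of 23. For Esrrg they were Myo16, an unconventional myosin (r = 0.954), Hmgb3, a chromatin protein (r = 0.946), and Fhl1, a LIM domain protein (r = 0.926). The share of Myo16 regions called was 10.5% at 0 h and 47.4% at 48 h, with 7 gained and 2 lost of 19. The points of these correlations share libraries and their peak numbers.

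The ERR pathway was read from 3 lists. The ERR cofactors held 171 regions, of which 31 (18.1%) were gained, 28 (16.4%) lost and 22 (12.9%) shared at 48 h, beside 14.5%, 16.6% and 18.7% of all regions. Among them Ppargc1b, the PGC-1 beta coactivator, had 4 gained and 1 lost of 22 regions, and Ncoa2 and Ncoa3, steroid receptor coactivators, had 8 gained and 4 lost of 25 and 6 gained and 3 lost of 27. Ncor1, a corepressor, had 3 gained and 6 lost of 25. Ppargc1a, the PGC-1 alpha coactivator, had 0 gained and 1 lost of 2 regions, and Perm1 had no region.

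Related nuclear receptors held 145 regions, of which 11 (7.59%) were gained, 28 (19.3%) lost and 25 (17.2%) shared. Nr5a2, a receptor that binds nearly the same word as the ERRs, had 4 gained and 5 lost of 20 regions, and Rora, a retinoid-related orphan receptor, had 4 and 6 of 39. The estrogen receptor genes Esr1 and Esr2 had 0 gained and 1 and 2 lost of 8 and 10 regions. Nr0b1, a repressor active in ES cells, had 0 gained and 1 lost of 3. Energy metabolism genes that ERRs are known to bind held 53 regions, of which 3 (5.66%) were gained, 3 (5.66%) lost and 22 (41.5%) shared. Among them, Cpt1a, which passes fatty acids into mitochondria, had 1 gained region of 7, and the lost regions lay at Acadm, Pdk4 and Idh3a (1 each).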

How the data were processed

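The authors ran the ATAC-seq pipeline of ENCODE. File names state an irreproducible discovery rate of 0.05 on pseudoreplicates and a blacklist filter, with 1 list for every library and no pooling of replicates. The submitters' processing notes name mm10 (GRCm38) and deepTools. The authors deposited for each peak an unnamed score of unstated scale, used here only as a percentile within its library. The lists hold no read counts, so depth is unknown and no interval that needs it is given.

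Peaks were merged and assigned to genes with Python 3.11.15 and pandas 2.3.3, and the code was tested on simulated data. A region was called if a peak covered at least 1 bp of it. No region ended past its chromosome in GRCm38 (0 of 124598). Calls were compared between time points without a test, since the genes were chosen by them. Members, lists and words were chosen with earlier results of these data known. Named regions were those over protein-coding start sites, those called in all 14 libraries, up to 6 gained and 6 lost per gene by mean score percentile, and up to 3 transient per gene by number of libraries. Likeness was Pearson's r over genes with at least 8 regions. Alternatives were the 50000 highest peaks per library, 50% of the region covered, merging up to 200 bp apart, assignment by nearest start site or gene body alone, calls in at least 1 library, and each library left out. The values of 1 energy metabolism gene are not reported here, although the list's totals include it.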

Additional observations from a re-analysis of the deposited data

How the results depend on the processing

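No paired analysis was possible because no value here comes from a test. Of the alternatives that left out no library, 137 kept a count of gained, lost or shared regions within 1.5 times and 43 did not, beside 54 for 9 Esrra counts that were 0 throughout, and the cause was not tested unless the setting's construction gives it. The excess of lost over gained Esrrb regions at 48 h, and of gained over lost Esrrg regions, was kept under every alternative run.

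With the 50000 highest peaks per library, lost Esrrg regions numbered 0 at 2 h, 1 at 4 h and 3 at each of 16, 24 and 48 h, gained Esrrg regions 2 at 8 h, and gained Esrra regions 0 at 16 h and 24 h. With 50% of the region covered, lost Esrrb regions numbered 4 at 2 h and 5 at 4 h, gained Esrra regions 0 at 16 h and 24 h, and shared regions at 48 h 0 for Esrra, 3 for Esrrb and 1 for Esrrg. With peaks merged up to 200 bp apart, gained Esrra regions numbered 0 at 16, 24 and 48 h. By nearest TSS only, which by construction leaves out regions within Esrrg but over 50 kb from a start site, gained Esrrg regions numbered 0, 1, 2, 4, 3 and 4 and lost regions 0 at each of 2, 4, 8, 16, 24 and 48 h. By gene body only, which drops upstream regions, lost Esrrb regions numbered 1, 1, 3 and 2 at 2, 4, 8 and 16 h, gained Esrra regions 0 at 16, 24 and 48 h, and shared Esrrg regions 1. With calls in at least 1 library, which is looser by construction, gained Esrrb regions numbered 5, 8 and 8 at 2, 4 and 8 h, gained Esrrg regions 4 at 4 h and shared Esrrb regions 8.

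Leaving out each library in turn at 2, 4, 8, 16, 24 and 48 h gave 3 to 5, 4 to 6, 5 to 7, 8 to 10, 6 to 6 and 4 to 5 gained and 2 to 4, 3 to 5, 5 to 9, 4 to 5, 8 to 10 and 13 to 14 lost Esrrb regions. For Esrrg it gave 1 to 2, 2 to 3, 4 to 6, 8 to 9, 6 to 6 and 10 to 14 gained and 2 to 3, 3 to 3, 3 to 4, 5 to 6, 5 to 6 and 5 to 6 lost. For Esrra it gave 0 to 0 gained through 8 h, 1 to 1 after, and 0 to 0 lost throughout. Shared regions at 48 h were 1 to 1 for Esrra, 5 to 7 for Esrrb and 2 to 2 for Esrrg. Counts moved by over 1.5 times without replicate 2 of 0 h (Esrrg gained at 2 h, 2), replicates 1 and 2 of 2 h (Esrrb gained, 5, and lost, 4), replicates 1 and 2 of 4 h (Esrrb gained, 5 and 6, and lost without replicate 2, 5) and replicate 1 of 8 h (Esrrb lost, 9).

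Mean numbers of called Esrrb regions were 18, 19, 17.5, 15.5, 18.5, 15.5 and 9 at 0, 2, 4, 8, 16, 24 and 48 h with the 50000 highest peaks. Depth, unknown here, limits all counts, since a weak region may fall below the calling threshold of 1 library.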
